A study of Mus musculus with 11 samples.

Results

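The transcription factor gene *Bcl6* and 8 genes of the growth hormone and STAT5 pathway (*Cish*, *Socs2*, *Socs3*, *Stat5a*, *Stat5b*, *Ghr*, *Prlr* and *Igf1*) were examined in lacrimal glands of NOD mice. They are 9 of the 19058 genes in the count table used. *Bcl6* was chosen by its level in these same glands, which was low in *Ifnar1* KO mice and not in *Tlr7* KO mice, so its values are given as a description with no test. The other 8 genes were chosen by name, as receptors, transducers or targets of the pathway, to ask whether STAT5 genes or the cell content of the gland moved with *Bcl6*. All 8 were tested, and their tests do not use the values of *Bcl6*.

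All mice were male and of the NOD strain, which is prone to inflammation of the lacrimal gland in males. The groups were 3 WT mice, 5 *Tlr7* KO mice and 3 *Ifnar1* KO mice, with 1 library of whole gland RNA per mouse. The *Tlr7* KO line carries a short deletion made by CRISPR/Cas9 in NOD embryos, descends from a single edited allele backcrossed to NOD, and lacks TLR7 protein (the gene is on the X chromosome, of which males have a single copy). The *Ifnar1* KO line carries the em16 allele on both chromosomes and lacks a subunit of the type I interferon receptor. A further *Ifnar1* KO sample, not analysed here, was dropped by the authors because it grouped with WT and was as inflamed as WT. The *Ifnar1* KO group was therefore chosen in part by its inflammation, which bears on all its contrasts of immune genes and cell content. The WT and *Tlr7* KO mice were adults of like age, and an age for the *Ifnar1* KO mice is not given in the sources used here. Cage and day of dissection are not given in the sources used here either, and their part in the results was not tested.

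BCL6 is a zinc finger repressor of transcription, best known for its part in germinal centre B cells and follicular helper T cells, and it is also made in liver, muscle, fat and other tissues. Growth hormone and prolactin bind their receptors, GHR and PRLR, and the kinase JAK2 then phosphorylates STAT5A and STAT5B, which enter the nucleus and bind DNA. Among the genes they switch on are *Cish* and *Socs2*, which encode inhibitors of the same receptors, and *Igf1*, the growth factor that carries many effects of growth hormone. In lymphocytes and liver, STAT5 is known to bind near *Bcl6* and to lower its transcription, and STAT5 and BCL6 share some target genes. Lacrimal glands are known to respond to pituitary hormones as well as to androgens.

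The libraries held 20512315 to 28814250 counts assigned to genes, and values are given as CPM (counts relative to library size after TMM scaling). A floor of 3 counts was 0.082 to 0.157 CPM, which covers counting error only. The *Tlr7* transcript averaged 2.39 CPM in WT (SD 0.746, n = 3) against 0.776 CPM in *Tlr7* KO (SD 0.175, n = 5), with a log2 fold change of -1.62. Its adjusted p was 0.00365 by edgeR's quasi-likelihood test, adjusted over all genes after Benjamini and Hochberg, which gave every adjusted p below. *Ifnar1* averaged 13.5 CPM in WT (SD 2.53, n = 3) against 9.02 CPM in *Ifnar1* KO (SD 0.625, n = 3), a log2 fold change of -0.61 (edgeR adjusted p = 0.0485, and 0.00648 to 0.142 over the alternatives run). Both transcripts were thus still detected in the mice that lack the protein, and *Tlr7* was also low in *Ifnar1* KO (log2 fold change -2.10) as *Ifnar1* was in *Tlr7* KO (log2 fold change -0.51). WT 2 stood apart from WT 1 and WT 3 in several of the genes below.

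*Bcl6* (ENSMUSG00000022508) was measured at 27.75 CPM in WT 1, 37.8 CPM in WT 2 and 30.4 CPM in WT 3. In *Tlr7* KO mice it was at 55.0, 31.4, 35.3, 50.3 and 39.5 CPM (mice 1 to 5). In *Ifnar1* KO mice it was at 6.28, 5.46 and 6.60 CPM. The WT and *Tlr7* KO ranges overlapped, while the highest *Ifnar1* KO mouse lay far below the lowest mouse of either other group. The group means were 32.0 ± 5.22 CPM in WT (SD, n = 3), 42.3 ± 10.01 CPM in *Tlr7* KO (SD, n = 5) and 6.11 ± 0.591 CPM in *Ifnar1* KO (SD, n = 3). *Bcl6* was 5.29-fold lower in *Ifnar1* KO than in WT (log2 fold change -2.40, SE 0.152) and 6.96-fold lower than in *Tlr7* KO (log2 fold change -2.80, SE 0.199). Between WT and *Tlr7* KO the log2 fold change was 0.41 (SE 0.187), and with scaling by library size only it was -0.051.

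These levels rested on 818 to 1112 counts per mouse in WT, 725 to 1437 in *Tlr7* KO and 146 to 184 in *Ifnar1* KO. In the other deposited count table, *Bcl6* had 578 to 789, 527 to 1023 and 108 to 124 counts in the same groups. With each mouse left out in turn, the log2 fold change of *Ifnar1* KO stayed between -2.50 and -2.28 against WT and between -2.89 and -2.70 against *Tlr7* KO. In *Ifnar1* KO against WT, 832 of 13937 genes had a more negative fitted change than *Bcl6*, and in *Ifnar1* KO against *Tlr7* KO 72 of 13935 had one. In whole gland RNA, fewer cells that make a transcript and less of it per cell cannot be told apart, and this holds for all values here.

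**Figure D1:**
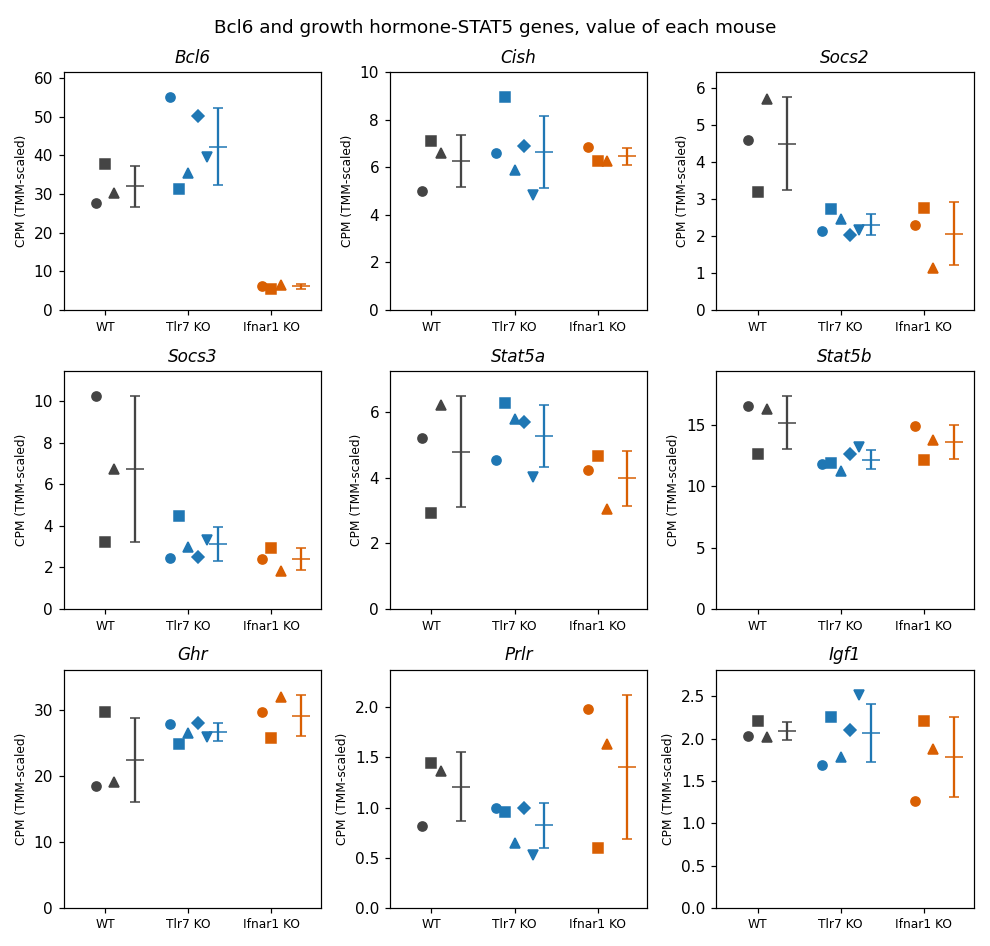
CPM of each of the 9 genes in each mouse (circle, square, triangle, diamond and inverted triangle for mice 1 to 5), by group, on linear axes from 0, with the mean and SD beside the points. *Bcl6* in *Ifnar1* KO sits at 5.46 to 6.60 CPM, below all WT and *Tlr7* KO mice (27.75 to 55.0 CPM), and *Cish* has overlapping ranges in all groups.

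*Bcl6* lies on the minus strand of chromosome 16 of GRCm38, from 23965052 to 23988852 (GENCODE M21). A short annotated gene on the other strand, *Gm37419*, from 23988482 to 23988595, lies within it, and counting without strand could not separate the pair. *Ifnar1* is on the plus strand of the same chromosome, from 91485238 to 91507441, 67.5 Mb away. Of the 7 other genes tested within 1 Mb of *Bcl6*, 1 was lower in *Ifnar1* KO than in *Tlr7* KO, and the 7 had a median log2 fold change of 0.106. The gene that fell was *Rtp4*, an interferon-induced gene (log2 fold change -2.41, edgeR adjusted p = 0.0299). Against WT, 2 of the 7 were lower in *Ifnar1* KO, beside 12.4% of all genes. They were *Rtp4* (-2.80, edgeR adjusted p = 0.0248) and the sialyltransferase gene *St6gal1* (-1.79, edgeR adjusted p = 0.0256). In *Tlr7* KO 1 was lower than in WT, *St6gal1* (-1.88, edgeR adjusted p = 0.0021), beside 17.4% of all genes. Both were named after their values were seen.

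Promoter sequence was read for the members because STAT5 binds a palindrome, and *Cish* and *Bcl6* are the members with the most copies of it. RefSeq (GRCm38.p6) gave 14 windows, from 250 bases before to 50 bases after a start site, for 8 of the 9 genes, with no entry for *Socs2*. The motif TTCNNNGAA, which is the same on both strands, was found in windows of 4 members, *Bcl6*, *Cish*, *Socs3* and *Prlr*. It was present in 5 of the 14 windows and in 8.3% of all 32851 windows of this length, and at least 2 copies were present in 0.46% of them. A core that interferon-activated factors bind, GAAA followed after 2 bases by a second GAAA and searched on both strands, was found in no window of these genes and in 3.44% of all windows. The windows of *Cish* and *Bcl6* are shown 5′ to 3′ on the strand of the gene with each TTCNNNGAA match in capitals.
*Cish*, plus strand, chr9:107296409-107296708: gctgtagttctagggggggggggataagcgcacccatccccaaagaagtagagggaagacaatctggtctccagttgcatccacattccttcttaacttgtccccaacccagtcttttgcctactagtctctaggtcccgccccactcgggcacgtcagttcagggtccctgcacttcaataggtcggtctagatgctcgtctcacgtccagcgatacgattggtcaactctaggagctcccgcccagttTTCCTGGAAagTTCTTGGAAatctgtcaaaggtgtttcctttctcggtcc
*Bcl6*, minus strand, chr16:23988803-23989102: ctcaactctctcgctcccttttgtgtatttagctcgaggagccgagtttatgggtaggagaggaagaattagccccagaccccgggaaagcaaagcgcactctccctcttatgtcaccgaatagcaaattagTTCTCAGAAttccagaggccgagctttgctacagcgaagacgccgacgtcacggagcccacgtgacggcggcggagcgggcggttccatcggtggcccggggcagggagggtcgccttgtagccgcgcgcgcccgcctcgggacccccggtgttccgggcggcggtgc
*Bcl6*, minus strand, chr16:23981234-23981533: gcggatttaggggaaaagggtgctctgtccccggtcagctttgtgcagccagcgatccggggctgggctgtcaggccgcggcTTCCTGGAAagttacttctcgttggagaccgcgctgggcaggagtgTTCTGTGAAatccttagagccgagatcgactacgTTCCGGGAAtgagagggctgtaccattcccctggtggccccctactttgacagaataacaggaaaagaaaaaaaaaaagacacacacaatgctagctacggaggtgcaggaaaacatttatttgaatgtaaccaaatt

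In *Cish* the 2 matches are a close pair at the start site, beginning at bases 107296659 and 107296670. In the upstream *Bcl6* window 1 match begins 118 bases before the start, and in the other window 3 matches begin 168, 122 and 88 bases before it. A match is a run of letters and not a measured binding site. Of the members with matches, *Bcl6* was low in *Ifnar1* KO, *Socs3* was lower in both KO groups, and *Cish* and *Prlr* passed no test.

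Across all genes, 4566 of 13937 were DE between WT and *Tlr7* KO, 2677 of 13937 between WT and *Ifnar1* KO, and 250 of 13935 between the KO groups (502 with the replicate number as a block). Of the 8 tested members, 3 were lower in *Tlr7* KO than in WT, against 17.4% of all genes, and 0 were higher, against 15.3%. In *Ifnar1* KO, 1 of the 8 was lower than in WT, against 12.4% of all genes, and 0 were higher, against 6.76%. Between the KO groups 0 of the 8 differed, where 0.926% of all genes were lower and 0.868% higher in *Ifnar1* KO. In that comparison DESeq2 also called 0, and *Stat5a* alone had an unadjusted p below 0.05 (0.0467, edgeR). Over the 8 genes the log2 fold changes had medians of -0.171, -0.215 and -0.103 in the 3 comparisons, beside -0.0373, -0.017 and -0.00112 over all genes. Each comparison shares its mice with the other two, so their counts are not independent.

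*Cish* (ENSMUSG00000032578) encodes a suppressor that is switched on directly by STAT5 and blunts signalling from cytokine receptors. It was measured at 5.02, 7.11 and 6.62 CPM in WT, at 6.59, 8.93, 5.88, 6.90 and 4.82 CPM in *Tlr7* KO, and at 6.86, 6.24 and 6.27 CPM in *Ifnar1* KO. The 3 groups overlapped, with the highest and the lowest mouse both in *Tlr7* KO. The fitted log2 fold change of *Cish* was 0.09 in *Tlr7* KO (edgeR adjusted p = 0.752) and 0.03 in *Ifnar1* KO (edgeR adjusted p = 0.916) against WT. Against *Tlr7* KO, *Ifnar1* KO had -0.05, with a 95% interval of -0.42 to 0.33 and an edgeR adjusted p of 0.918. Against WT the 95% interval in *Ifnar1* KO was -0.36 to 0.42. *Cish* lies on chromosome 9 from 107296026 to 107302784, and 2 annotated transcripts on the other strand overlap it, which counting without strand could not separate.

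*Socs2* (ENSMUSG00000020027), the main brake on the growth hormone receptor, was at 4.58, 3.19 and 5.69 CPM in WT. It was at 2.14, 2.73, 2.47, 2.02 and 2.15 CPM in *Tlr7* KO and at 2.29, 2.77 and 1.13 CPM in *Ifnar1* KO. Every KO mouse lay below every WT mouse, and the KO groups overlapped. *Socs2* fell by 0.97 on the log2 scale in *Tlr7* KO (SE 0.198, edgeR adjusted p = 0.00702), and this call held with each mouse left out in turn. In *Ifnar1* KO the change was -1.15 (SE 0.355, edgeR adjusted p = 0.0597), which DESeq2, the other count table, a single fit of all 11 mice and the fit without WT 2 called. The fitted difference between the KO groups was -0.16 (95% interval -0.74 to 0.41, edgeR adjusted p = 0.792). *Socs2* is on chromosome 10 from 95385362 to 95417180.

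*Socs3* (ENSMUSG00000053113) encodes a suppressor induced mainly by STAT3 and by inflammatory cytokines, and also by growth hormone. It was at 10.2, 3.24 and 6.73 CPM in WT, at 2.45, 4.47, 2.999, 2.52 and 3.30 CPM in *Tlr7* KO, and at 2.43, 2.92 and 1.84 CPM in *Ifnar1* KO. WT 2 overlapped the *Tlr7* KO mice, and all *Ifnar1* KO mice were below all WT mice. *Socs3* fell by 1.11 on the log2 scale in *Tlr7* KO (SE 0.333, edgeR adjusted p = 0.031) and fell by 1.53 in *Ifnar1* KO (SE 0.412, edgeR adjusted p = 0.0423). The first call was lost without WT 1, WT 3 or *Tlr7* KO 1, 3, 4 or 5, and the second without any 1 mouse other than WT 2. The fitted difference between the KO groups was -0.40 (95% interval -0.91 to 0.12, edgeR adjusted p = 0.428). *Socs3* is on chromosome 11 from 117966079 to 117970047.

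The transducer *Stat5b* (ENSMUSG00000020919), the form that growth hormone mainly uses, was at 16.5, 12.65 and 16.3 CPM in WT, at 11.8, 11.9, 11.2, 12.6 and 13.2 CPM in *Tlr7* KO, and at 14.9, 12.15 and 13.7 CPM in *Ifnar1* KO. WT 1 and WT 3 were above all KO mice, and WT 2 was among them. *Stat5b* fell by 0.32 on the log2 scale in *Tlr7* KO (SE 0.105, edgeR adjusted p = 0.0412). The call was lost without WT 1, WT 3 or *Tlr7* KO 1, 2, 3 or 4. In *Ifnar1* KO it changed by -0.18 against WT (edgeR adjusted p = 0.418) and 0.16 against *Tlr7* KO (edgeR adjusted p = 0.402).

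*Stat5a* (ENSMUSG00000004043), the form that prolactin mainly uses, was at 5.22, 2.94 and 6.23 CPM in WT, at 4.56, 6.29, 5.81, 5.70 and 4.04 CPM in *Tlr7* KO, and at 4.23, 4.67 and 3.05 CPM in *Ifnar1* KO. WT 2 was the lowest of all 11 mice, and the 3 groups overlapped. Its log2 fold change was 0.13 in *Tlr7* KO (edgeR adjusted p = 0.712) and -0.30 in *Ifnar1* KO (edgeR adjusted p = 0.502), and between the KO groups -0.41 (95% interval -0.81 to -0.01, edgeR adjusted p = 0.299). *Stat5a* and *Stat5b* are neighbours on chromosome 11, from 100859351 to 100885169 and from 100780731 to 100850724, on opposite strands 8626 bases apart. Their coding transcripts share 836 stretches of 31 bases, which is 20.24% of those of *Stat5a* and 15.18% of those of *Stat5b*, so some reads could be assigned to either. The 3′ end of *Stat5a* also overlaps *Stat3* on the other strand.

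*Ghr* (ENSMUSG00000055737), the growth hormone receptor gene, was at 18.45, 29.8 and 19.1 CPM in WT, at 27.9, 24.8, 26.5, 28.0 and 25.9 CPM in *Tlr7* KO, and at 29.6, 25.8 and 32.0 CPM in *Ifnar1* KO. WT 1 and WT 3 were below all KO mice, and WT 2 was above all but 1 of them. Its log2 fold change was 0.25 in *Tlr7* KO (edgeR adjusted p = 0.202) and 0.37 in *Ifnar1* KO (95% interval -0.09 to 0.82, edgeR adjusted p = 0.214). Without WT 2 it was higher in both, by 0.49 (edgeR adjusted p = 0.000606) and 0.60 (edgeR adjusted p = 0.0168). Between the KO groups it was 0.12 (95% interval -0.05 to 0.30). *Ghr* is on chromosome 15 from 3317760 to 3583492.

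*Prlr* (ENSMUSG00000005268), the prolactin receptor gene, rested on 10 to 58 counts per mouse. It ranged from 0.814 to 1.45 CPM in WT, from 0.524 to 0.996 CPM in *Tlr7* KO and from 0.598 to 1.98 CPM in *Ifnar1* KO. The ranges overlapped, and *Ifnar1* KO held both 1 of the lowest mice and the highest. Its log2 fold change was -0.55 in *Tlr7* KO (edgeR adjusted p = 0.189) and 0.20 in *Ifnar1* KO (edgeR adjusted p = 0.786), and 0.75 between the KO groups (95% interval -0.08 to 1.58, edgeR adjusted p = 0.351). A gene on the same strand overlaps its 3′ part. *Prlr* is on chromosome 15 from 10177238 to 10349180.

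*Igf1* (ENSMUSG00000020053) was at 2.04, 2.22 and 2.02 CPM in WT, at 1.69 to 2.52 CPM in *Tlr7* KO and at 1.26, 2.21 and 1.88 CPM in *Ifnar1* KO, from 37 to 74 counts per mouse. The groups overlapped. Its log2 fold change was -0.02 in *Tlr7* KO (95% interval -0.42 to 0.39, edgeR adjusted p = 0.95) and -0.25 in *Ifnar1* KO (95% interval -0.87 to 0.37, edgeR adjusted p = 0.526). Between the KO groups it was -0.22 (edgeR adjusted p = 0.671). *Igf1* is on chromosome 10 from 87858265 to 87937042, and *Igf1os* on the other strand overlaps it.

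**Figure D2:**
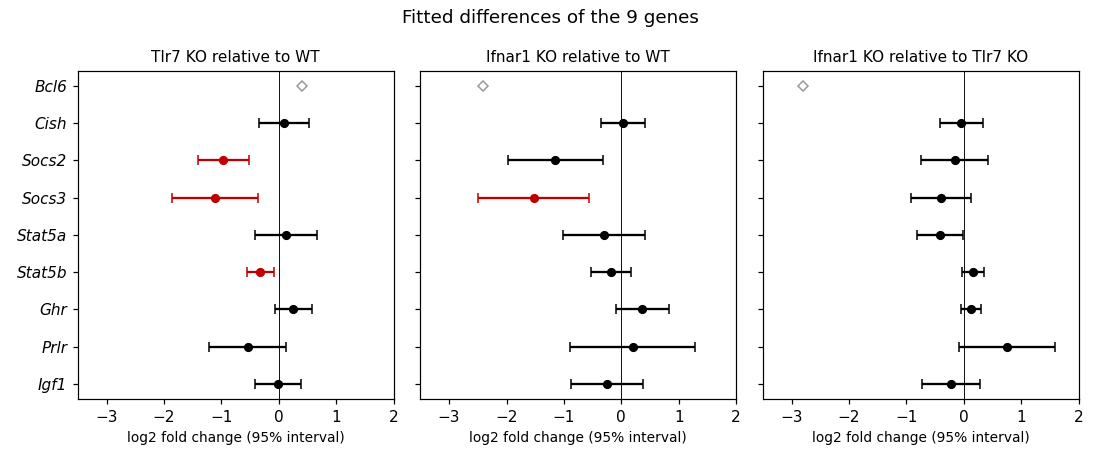
Log2 fold change of the 9 genes in each of the 3 comparisons, with its 95% interval for the 8 tested genes, red points for an adjusted p under 0.05 and an open grey diamond with no interval for *Bcl6*, which was not tested. *Socs2*, *Socs3* and *Stat5b* are red in *Tlr7* KO relative to WT, *Socs3* alone is red in *Ifnar1* KO relative to WT, and none is red between the KO groups.

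The mice within the WT group differed in these genes. WT 2 had the lowest *Socs2*, *Socs3*, *Stat5a* and *Stat5b* of the WT mice and the highest *Ghr* and *Bcl6*. It also had the lowest summed level of B cell genes among them (78.5 CPM, against 238 and 274 CPM) and of interferon-stimulated genes (23.0 CPM, against 82.9 and 83.0 CPM). The part of these levels in the values of WT 2 was not tested.

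The wider pathway was read through 4 lists. Of 22 tested genes of growth hormone and prolactin signalling, 9 were lower and 1 was higher in *Tlr7* KO than in WT (17.4% and 15.3% of all genes). In *Ifnar1* KO 7 were lower than in WT (12.4% of all genes), and 0 differed between the KO groups. With 1 mouse left out, the *Tlr7* KO counts were 7 to 13 lower and 0 to 4 higher (4 without WT 2), and between the KO groups 1 was lower and 1 higher with the replicate block and by DESeq2. *Gh* and *Prl*, the hormones' own genes, are not rows of the table used. *Jak2*, the kinase of both receptors, was at 13.7 ± 3.89 CPM in WT (SD, n = 3), 5.28 to 7.71 CPM in the 5 *Tlr7* KO mice and 5.37 ± 1.08 CPM in *Ifnar1* KO (SD, n = 3). It fell by 1.11 on the log2 scale in *Tlr7* KO (edgeR adjusted p = 0.00437) and fell by 1.38 in *Ifnar1* KO (edgeR adjusted p = 0.023). The interferon-inducible gene *Socs1* had only 2 to 9 counts per mouse in *Ifnar1* KO and passed the filter through WT (13 to 79 counts). Its log2 fold change of -3.32 in *Ifnar1* KO, which is among the 7 counted as lower, is therefore given as a description. The leukocyte phosphatase gene *Ptpn6* had -1.15 in *Tlr7* KO (edgeR adjusted p = 0.00885) and -1.38 in *Ifnar1* KO (edgeR adjusted p = 0.0295). In *Tlr7* KO the insulin receptor substrate genes *Irs1* and *Irs2* had log2 fold changes of -1.48 and -1.16 (edgeR adjusted p = 0.00499 and 0.00617), and the kinase gene *Lyn* had -1.28 (edgeR adjusted p = 0.00267). In *Ifnar1* KO *Irs1* and *Irs2* had 0.49 and -0.27 (edgeR adjusted p = 0.551 and 0.589), and *Lyn* had -1.35 (edgeR adjusted p = 0.023). The B and T cell genes that fell in the same comparisons are given below, and their part in the counts of this list was not tested. Of the pathway-list calls in *Ifnar1* KO against WT that were run through the alternatives, each except that of *Osm* was lost on leaving out WT 1 or WT 3. *Osm*, given below, was run in only 10 of the 15 alternatives and lost its call without *Ifnar1* KO 1, 2 or 3. No gene at all passed in that comparison on leaving out *Ifnar1* KO 1 or 3.

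Of 11 STAT5 target genes other than the members, 4 were lower in *Tlr7* KO, 5 in *Ifnar1* KO and 1 between the KO groups (17.4%, 12.4% and 0.926% of all genes), and 0 were higher in any comparison. In the same comparisons with WT, 8 of 8 B cell genes and 7 of 9 T cell genes were lower, and their part in these counts was not tested. The counts against WT include *Osm*, which passed the filter on WT counts only through its level in WT. With 1 mouse left out, the first count ranged from 1 to 5. Their summed level was 101.9 to 137 CPM in WT, 97.1 to 114 CPM in *Tlr7* KO and 79.8 to 95.7 CPM in *Ifnar1* KO, with a narrow gap between the KO groups. In absolute CPM of the group means, *Ccnd1* differed most between the KO groups (13.4 and 4.52 CPM), while *Mcl1*, the most abundant of the list, was at 50.4 CPM in *Tlr7* KO and 53.6 CPM in *Ifnar1* KO. By fold *Osm* differed more, with a log2 fold change of -1.94 against -1.56 for *Ccnd1*, and it was not called. The cyclin gene *Ccnd2* fell by 1.53 on the log2 scale in *Tlr7* KO (edgeR adjusted p = 0.00998) and fell by 1.98 in *Ifnar1* KO (edgeR adjusted p = 0.025). The kinase gene *Pim1* had log2 fold changes of -0.88 (edgeR adjusted p = 0.0292) and -1.42 (edgeR adjusted p = 0.0235), and the cell cycle inhibitor gene *Cdkn1a* had -1.78 in *Ifnar1* KO (edgeR adjusted p = 0.0364). *Mcl1*, which encodes a survival protein, fell by 0.28 in *Tlr7* KO (edgeR adjusted p = 0.0432). The *Tlr7* KO calls of *Pim1* and *Mcl1* were lost without any 1 mouse except WT 2 or *Tlr7* KO 2. The cytokine gene *Osm* was near the floor in *Ifnar1* KO, with at most 2 counts per mouse, and had 4 to 18 in WT.

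*Ccnd1*, which encodes cyclin D1, was the 1 STAT5 target called between the KO groups by edgeR, also with the replicate block, where DESeq2 called 2. It was at 13.4 ± 1.44 CPM in *Tlr7* KO (SD, n = 5) and 4.52 ± 2.77 CPM in *Ifnar1* KO (SD, n = 3), a log2 fold change of -1.56 (SE 0.293, edgeR adjusted p = 0.0305). In WT it ranged from 3.24 to 20.5 CPM. The call between the KO groups was lost on leaving out any 1 mouse except *Ifnar1* KO 2 and in a single fit of all 11 mice, with an adjusted p of up to 0.201.

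Of 9 tested genes of other STAT5-using receptors, 7 were lower in *Tlr7* KO, 5 in *Ifnar1* KO and 0 between the KO groups (17.4%, 12.4% and 0.926% of all genes). The first count was 3 without WT 1 and 4 without WT 3, and the last was 2 with the replicate block, by DESeq2 or without *Ifnar1* KO 2. *Il2rg*, the common gamma chain of lymphocyte cytokine receptors, had a log2 fold change of -2.08 in *Tlr7* KO (edgeR adjusted p = 0.00655) and -3.13 in *Ifnar1* KO (edgeR adjusted p = 0.0265). *Jak3*, its kinase, had -1.87 and -2.62 (edgeR adjusted p = 0.0165 and 0.0335), and *Il2rb* had -1.85 and -2.71 (edgeR adjusted p = 0.0219 and 0.043). In *Tlr7* KO the call of *Jak3* was lost without WT 1 or WT 3, and that of *Il2rb* without any 1 mouse except WT 2 or *Tlr7* KO 2. The kinase gene *Jak1*, the most abundant of the list, had log2 fold changes of 0.11 and -0.17 (edgeR adjusted p = 0.449 and 0.379). Also lower in *Tlr7* KO were *Csf2rb* (-1.52, edgeR adjusted p = 0.00761), *Csf2rb2* (-1.31, edgeR adjusted p = 0.0136), *Il3ra* (-0.999, edgeR adjusted p = 0.0167) and *Il7r* (-1.06, edgeR adjusted p = 0.0112). *Csf2rb2* and *Il3ra* were named after their values were seen. *Il2rg*, *Jak3* and *Il2rb* are lymphocyte genes. The levels of B cell, T cell and myeloid genes are given below, and their part in these counts was not tested.

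Of 11 tested genes of BCL6 corepressors and related repressors, 1 was lower in each KO group than in WT, beside 17.4% and 12.4% of all genes, and 0 differed between the KO groups. It was *Bach2*, a repressor of B and T cells, which fell by 1.55 in *Tlr7* KO (edgeR adjusted p = 0.00143) and fell by 1.18 in *Ifnar1* KO (edgeR adjusted p = 0.025). The corepressor gene *Ncor1*, the most abundant of the list, had a log2 fold change of 0.05 between the KO groups (edgeR adjusted p = 0.711). With 1 mouse left out, 1 to 3 genes of the list were lower in *Tlr7* KO and 0 to 1 in *Ifnar1* KO than in WT. The other alternatives gave 0 to 5 lower in *Tlr7* KO and 0 to 2 higher in *Ifnar1* KO.

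**Figure D3:**
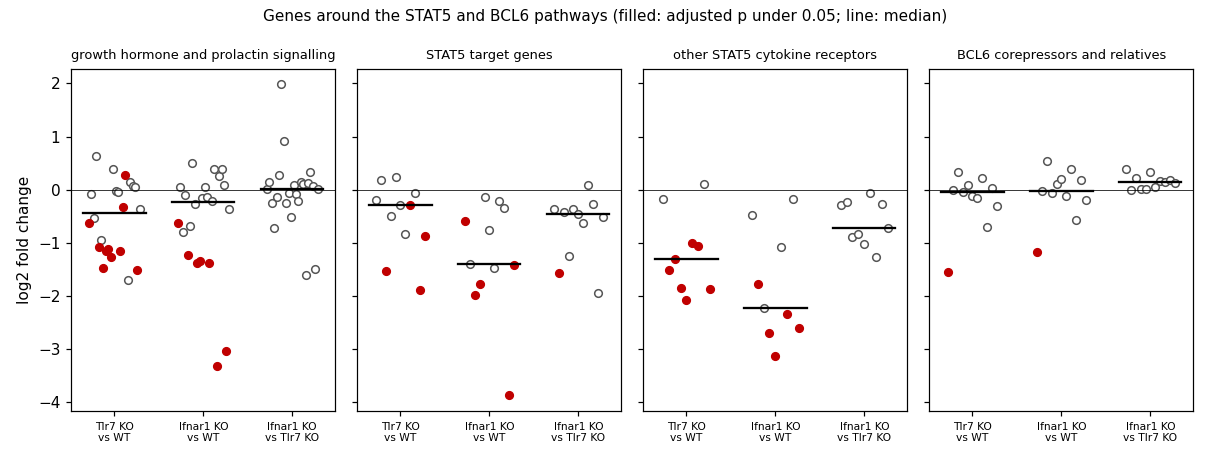
Log2 fold change of each tested gene of 4 lists in the 3 comparisons, with filled red points for an adjusted p under 0.05, open points for the rest and a line at the median of the list. Of the 11 STAT5 target genes, 4, 5 and 1 are filled, all below 0, and of the BCL6 corepressors and relatives only *Bach2* is filled.

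The cell content of the glands was read from marker lists. Of all genes, 17.4% were lower in *Tlr7* KO and 12.4% in *Ifnar1* KO than in WT, and 0.926% were lower in *Ifnar1* KO than in *Tlr7* KO. All 8 B cell genes were lower in both KO groups than in WT, and 0 of 8 differed between the KO groups by edgeR (4 were lower in *Ifnar1* KO with the replicate block, and 1 by DESeq2). Their summed level was 78.5 to 274 CPM in WT, 6.76 to 48.85 CPM in *Tlr7* KO and 2.51 to 19.96 CPM in *Ifnar1* KO, and their part in the level of *Bcl6* was not tested. The 8 genes of germinal centre B and follicular T cells, the cells best known for BCL6, summed to 13.1 to 33.9 CPM in WT, 1.90 to 7.24 CPM in *Tlr7* KO and 1.13 to 3.63 CPM in *Ifnar1* KO. The filter used WT counts alone, so genes nearly absent from the KO groups, such as *Il21* with at most 1 count in any KO mouse, entered only through WT, and the counts against WT are a description. Of the 5 tested, 4 were lower in *Tlr7* KO, 5 in *Ifnar1* KO and 1, *S1pr2*, between the KO groups. *S1pr2*, named after its values were seen, was at 1.42 ± 0.211 CPM in *Tlr7* KO (SD, n = 5) and 0.518 ± 0.132 CPM in *Ifnar1* KO (SD, n = 3). The defining genes *Mybl1* and *Rgs13* had at most 14 counts in any mouse. T cell genes were lower in 7 of 9 in each KO group, and in *Tlr7* KO in 3 of 9 without WT 1 or WT 3. Between the KO groups 0 of 9 differed by edgeR, and 3 were lower in *Ifnar1* KO with the replicate block. No germinal centre or follicular gene passed between the KO groups when any 1 mouse other than *Ifnar1* KO 2 was left out.

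Interferon-stimulated genes shared with *Bcl6* the low level in *Ifnar1* KO, by which *Bcl6* was chosen. In *Tlr7* KO against WT their median log2 fold change was -0.481, while that of *Bcl6* was 0.41. Of 8, 0 were lower in *Tlr7* KO than in WT (0 also by DESeq2 and at an unadjusted p under 0.05 by edgeR, and 3 without WT 2), and all 8 were lower in *Ifnar1* KO than in WT and than in *Tlr7* KO. They summed to 23.0 to 83.0 CPM in WT, 35.8 to 90.7 CPM in *Tlr7* KO and 2.47 to 9.46 CPM in *Ifnar1* KO. The count between the KO groups was 4 in a single fit of all 11 mice, 2 without *Ifnar1* KO 1, and 5 without *Tlr7* KO 3 or 5. Within WT, WT 2 had the lowest of these sums (23.0 CPM) and the highest *Bcl6* (37.8 CPM). Their part in the level of *Bcl6* was not tested.

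Of 18 lists, 4 had a summed level in *Ifnar1* KO below both other groups with no overlap, and 0 had one above. The share of all genes with such a gap was not counted, so these counts only describe the lists. Such a sum follows its most abundant genes. For STAT5 targets the gap was narrow (95.7 against 97.1 CPM). Besides these and interferon-stimulated genes, the 4 lists were those of myeloid and endothelial genes. Myeloid genes summed to 57.5 to 151 CPM, against 165 to 189 CPM in *Tlr7* KO and 190 to 335 CPM in WT. Endothelial genes summed to 6.98 to 9.91 CPM, against 10.6 to 14.6 CPM and 14.6 to 25.5 CPM. Against WT, 4 of 8 myeloid and 2 of 5 endothelial genes were lower in each KO group (17.4% of all genes in *Tlr7* KO and 12.4% in *Ifnar1* KO). In *Tlr7* KO 1 endothelial gene was higher (15.3%). With 1 mouse left out, 0 to 6 myeloid genes were lower in either KO group. Between the KO groups 0 of 8 myeloid and 0 of 5 endothelial genes passed the edgeR test, beside 0.926% of all genes lower in *Ifnar1* KO. However, 3 and 1 were lower in *Ifnar1* KO with the replicate block, 2 and 0 by DESeq2, and 5 and 0 without *Ifnar1* KO 2. *Lyz2* and *Csf1r* were the most abundant of the myeloid list, with means of 133 and 11.2 CPM over the 11 mice, and *Pecam1* and *Kdr* of the endothelial list. Gland epithelial genes, led by *Bhlha15* and *Ltf*, summed to 1441 to 1777 CPM in WT, 1848 to 1946 CPM in *Tlr7* KO and 1925 to 1999 CPM in *Ifnar1* KO. Single genes of this list moved both ways, with 3 of 12 lower and 3 higher in *Tlr7* KO than in WT (17.4% and 15.3% of all genes) and 3 lower and 1 higher in *Ifnar1* KO (12.4% and 6.76%). With 1 mouse left out the *Tlr7* KO counts were 1 to 3 lower (1 without WT 3 or *Tlr7* KO 3) and 2 to 4 higher, and those in *Ifnar1* KO 0 to 3 lower and 0 to 3 higher. Named after their values were seen, *Krt19* of ducts had log2 fold changes of -1.65 and -2.08 (edgeR adjusted p = 0.0378 and 0.026) and *Bhlha15* of acini had 0.49 and 0.67 (edgeR adjusted p = 0.00838 and 0.0499). Also named after their values were seen, *Slc12a2* had -0.71 and -0.82 and *Sox10* had -1.09 and -1.36, each called lower in both. *Krt7* had 0.03 and 0.26 and passed in neither (edgeR adjusted p = 0.858 and 0.23). The count of 1 higher in *Ifnar1* KO was 0 without any 1 mouse except WT 2 and 4 in a single fit of all 11 mice. Fibroblast and adipocyte genes had 0 of 7 and 0 of 6 called between the KO groups, with sums that overlapped between them, and so had 0 of 2 neutrophil genes. The sum of 7 adipocyte genes was 11.8 to 14.7 CPM in WT, 3.61 to 22.2 CPM in *Tlr7* KO and 2.22 to 9.61 CPM in *Ifnar1* KO, which lay below WT. Of the 6 tested, 0 passed against WT in either KO group by edgeR, and 1 was lower in *Ifnar1* KO in 3 of the alternatives. The part of fat in the level of *Bcl6* was not tested.

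Skeletal muscle genes, led by *Myh4* and *Acta1*, were uneven between mice. They summed to 336 CPM in WT 1, 241 CPM in WT 2, 235 CPM in *Tlr7* KO 4 and 9.08 CPM in *Ifnar1* KO 2, and to at most 0.328 CPM in each of the other 7 mice. Among the mice nearly free of muscle genes *Bcl6*, which is also made in muscle, was at 30.4 CPM in WT 3, 31.4 to 55.0 CPM in *Tlr7* KO 1, 2, 3 and 5, and 6.28 and 6.60 CPM in *Ifnar1* KO 1 and 3. The part of muscle in these levels was not tested.

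**Figure D4:**
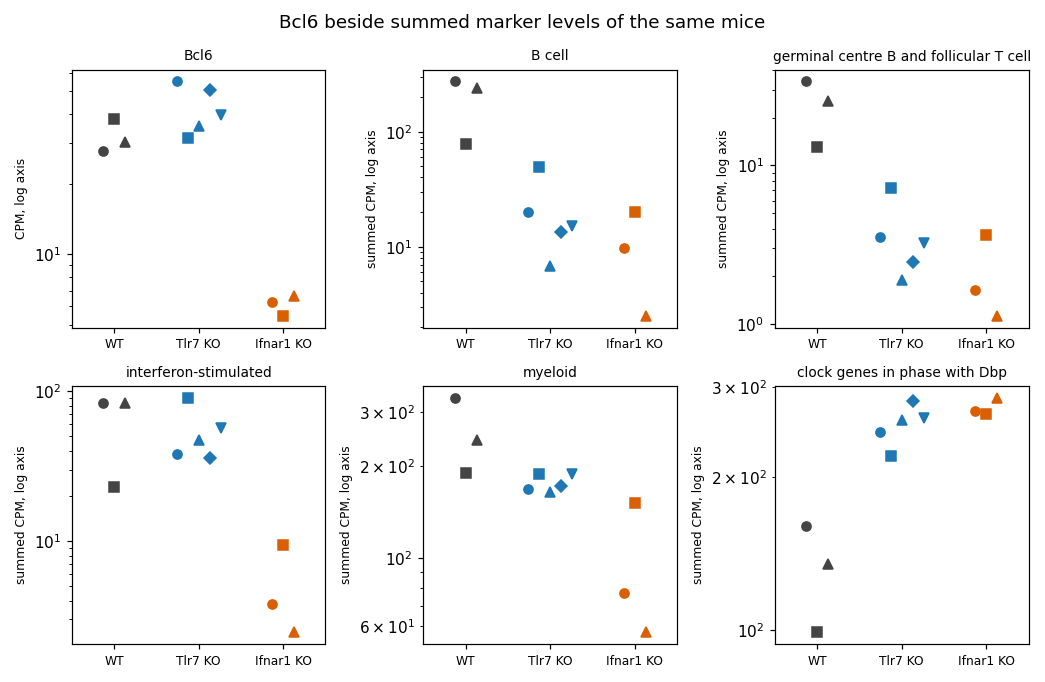
*Bcl6* (CPM) and the summed CPM of 5 gene lists in each mouse by group, on log axes, with the symbols of the plot of single genes. B cell and germinal centre genes are low in both KO groups, while *Bcl6*, interferon-stimulated genes and myeloid genes are lowest in *Ifnar1* KO, and the sum of clock genes in phase with *Dbp* is higher in both KO groups than in WT.

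*Bcl6* and several STAT5 and glucocorticoid targets vary over the day in other tissues, so clock genes were read too. Of 10 genes in phase with *Dbp*, 5 were higher and 1 was lower in *Tlr7* KO (15.3% and 17.4% of all genes), and 4 were higher in *Ifnar1* KO (6.76%). Between the KO groups 0 differed (1 was higher in *Ifnar1* KO with the replicate block). *Dbp* rose by a log2 fold change of 2.32 in *Tlr7* KO (edgeR adjusted p = 0.0114) and 2.58 in *Ifnar1* KO (edgeR adjusted p = 0.0334), and *Nr1d1* by 1.77 and 2.14 (edgeR adjusted p = 0.00258 and 0.0225). Of 5 genes in antiphase, 2 were lower in *Tlr7* KO and 1 in *Ifnar1* KO (17.4% and 12.4% of all genes), and their sums overlapped in all groups. *Arntl* of this list had -3.25 and -3.02 (edgeR adjusted p = 0.00383 and 0.0344), while *Clock*, its most abundant gene, had 0.57 and 0.35 (edgeR adjusted p = 0.0536 and 0.321). The time of dissection is not given in the sources used here, and its part in the level of *Bcl6* was not tested.

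Of 14 glucocorticoid and fasting genes, 8 were lower and 3 higher in *Tlr7* KO (17.4% and 15.3% of all genes), and 5 were lower in *Ifnar1* KO (12.4%). In *Ifnar1* KO 1 was lower than in *Tlr7* KO, beside 0.926% of all genes (2 with the replicate block and 3 by DESeq2 or without *Ifnar1* KO 2). The 1 called by edgeR was *Mt1*, a metallothionein gene, at 18.6 ± 2.54 CPM in WT (SD, n = 3), 23.3 ± 1.26 CPM in *Tlr7* KO (SD, n = 5) and 14.4 ± 1.14 CPM in *Ifnar1* KO (SD, n = 3). Its log2 fold change between the KO groups was -0.70 (edgeR adjusted p = 0.00301), and the call held in 16 of 17 alternatives, the exception being scaling by library size only. *Pdk4*, a fasting-induced kinase gene, had -2.90 in *Tlr7* KO (edgeR adjusted p = 0.0036) and -2.72 in *Ifnar1* KO (edgeR adjusted p = 0.023). *Tsc22d3*, a glucocorticoid target, had -1.17 and -1.04 (edgeR adjusted p = 0.00063 and 0.023), while *Fkbp5*, another, rose by 1.16 in *Tlr7* KO (edgeR adjusted p = 0.00138).

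The genes whose levels were most like *Bcl6* over the 11 mice were sought by Pearson's r of log2 CPM, as a description, in the 11494 genes that averaged 1 CPM or more. Such an r rests mainly on the difference between *Ifnar1* KO and the rest. The 5 highest were *Itm2b* (0.933), *Bbc3* (0.931), *Fbp1* (0.903), *Mt1* (0.895) and *1700017B05Rik* (0.893). *Bbc3*, which encodes the cell death protein PUMA, was at 1.78 ± 0.0716 CPM in WT (SD, n = 3), 2.19 ± 0.295 CPM in *Tlr7* KO (SD, n = 5) and 0.930 ± 0.0986 CPM in *Ifnar1* KO (SD, n = 3). *Itm2b* was at 232 ± 9.16, 238 ± 8.38 and 181 ± 7.21 CPM in the same groups, a smaller difference than that of *Bcl6*. When the mean of each group was removed first, the 5 highest were *Ppp3cb* (0.957), *Sirt4* (0.944), *Mrps26* (0.931), *Mturn* (0.927) and *Supt3* (0.927), and none of them was on the first list. *Ppp3cb* had group means of 11.98, 13.5 and 11.8 CPM, close to each other where *Bcl6* was not. With group means removed, the r of the members with *Bcl6* was -0.789 for *Socs3*, -0.564 for *Socs2*, -0.558 for *Stat5a* and -0.276 for *Igf1*. It was -0.108 for *Stat5b*, 0.0362 for *Cish*, 0.48 for *Prlr* and 0.653 for *Ghr*. These values include WT 2, which stood apart in several of these genes, and none was tested.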

How the data were processed

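Whole lacrimal gland RNA of 11 mice (3 WT, 5 *Tlr7* KO, 3 *Ifnar1* KO) was sequenced by the authors on an Illumina HiSeq instrument. The main table holds estimated counts per gene that the authors made with salmon and tximport before they were deposited. It is named as normalized, but its column totals differ as raw libraries do, so it was rounded and used as counts for 19058 genes. The other deposited table, of 39017 genes, has counts in whole numbers. Its counting program is not given in the sources used here, and HISAT2 2.1.0 and the mm10 build are listed in the submitters' processing notes. It also has a column named as a further *Ifnar1* KO library that matches no sample, and this 1 column was not used.

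Each pair of groups was fitted separately with TMM scaling and edgeR's two-sided quasi-likelihood test (edgeR 4.0.16, R 4.3.3). A gene was tested if its WT counts summed to 30 or more, Benjamini-Hochberg adjustment ran over all genes tested, and DE means an adjusted p under 0.05. DESeq2 1.42.0, other scalings and filters, a single fit, the other table and leaving out each mouse were the alternatives. Both comparisons with WT share the 3 WT mice. CPM used TMM factors over all 11 mice, and log2 CPM a prior count of 2.

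The members and gene lists were chosen with earlier results of these data known, and the lists were written from general knowledge. Genes were named by a rule, which takes the 9 members, *Tlr7*, *Ifnar1*, up to 4 called genes with the largest change per pathway list and comparison, the most abundant 2 genes of a cell list, and the 5 genes most like *Bcl6* by each measure. Other genes are named as the most abundant of a list or as named after their values were seen, and some genes that the rule takes are not reported here. What the replicate numbers of the mice stand for is not given in the sources used here. Deviations from group means of same-numbered mice correlated at 0.131, 0.39 and 0.356 between the KO groups, so a fit with the replicate number as a block is given there. Against WT they correlated at -0.156, -0.456 and 0.0345 in *Tlr7* KO and at -0.193, -0.481 and -0.328 in *Ifnar1* KO. Annotation is GENCODE M21 (GRCm38), and promoters are RefSeq's (GRCm38.p6).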

Additional observations from a re-analysis of the deposited data

How the results depend on the processing

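The log2 fold change of *Bcl6* kept its sign in both comparisons with *Ifnar1* KO under all alternatives run, from -2.67 (library size only) to -2.28 against WT and from -2.89 to -2.62 against *Tlr7* KO. With each mouse left out it was -2.50 to -2.28, -2.89 to -2.70 and, in *Tlr7* KO against WT, 0.29 to 0.53, and library size only gave -0.051 there. That scaling moved the median of all genes by over 0.1, to -0.536, -0.312 and 0.19 in the 3 comparisons, and the share of DE genes that were lower from 53.2%, 64.8% and 51.6% to 97.2%, 96.2% and 30.6%. It turned *Cish* to -0.37, *Stat5a* to -0.44 and *Ghr* to -0.18 in *Tlr7* KO, *Cish* to -0.24 and *Prlr* to -0.054 in *Ifnar1* KO, and between the KO groups *Cish* to 0.13, *Socs2* to 0.042 and *Ifnar1* to 0.089. In *Ifnar1* KO against WT it gave 1340 DE genes and 0 of the 8 members.

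The counts of DE genes with each mouse left out were 2601 to 6595 in *Tlr7* KO, 0 to 4643 in *Ifnar1* KO and 85 to 877 between the KO groups, with 1 to 4, 0 to 3 and 0 of the 8 members. In *Ifnar1* KO against WT the count was 13 without WT 1, 104 without WT 3, 4643 without WT 2, 0 without *Ifnar1* KO 1 or 3 (4383 and 3778 genes at an unadjusted p under 0.05 by edgeR) and 1590 without *Ifnar1* KO 2. Leaving out a mouse also turned values near 0. In *Tlr7* KO against WT, *Cish* ranged from -0.045 to 0.179, *Stat5a* from -0.127 to 0.361 and *Igf1* from -0.0964 to 0.050. In *Ifnar1* KO against WT, *Cish* ranged from -0.107 to 0.113 and *Prlr* from -0.12 to 0.567. Between the KO groups *Cish* ranged from -0.134 to 0.0857 and *Socs2* from -0.429 to 0.123. The cause was not tested.

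With the replicate block there were 14 DE genes and 0 members in *Tlr7* KO, 0 DE genes (3787 at an unadjusted p under 0.05 by edgeR, 3356 DE by DESeq2 without a block) and 0 members in *Ifnar1* KO, and 502 DE genes and 0 members between the KO groups. At an adjusted p under 0.01 there were 1970 DE genes and 1 member, 1 DE gene and 0 members, and 30 DE genes. A single fit of all 11 mice gave 5124 DE genes and 2 members in *Ifnar1* KO and 93 DE genes between the KO groups, DESeq2 gave 2 members in *Ifnar1* KO and 577 DE genes between the KO groups, and the other count table gave 2 members in *Ifnar1* KO. The calls of pathway genes that the naming rule takes, and *Tlr7* and *Ifnar1*, were run through the same alternatives after their values were seen, and other named genes were not. Of these values 635 kept direction and call, 207 kept direction and lost the call, and 1 reversed, that of *Ifnar1* given above. Counts per mouse were low for *Prlr* (10 to 58), *Socs1* in *Ifnar1* KO (2 to 9) and *Irs1* in *Tlr7* KO (7 to 14), which limits their precision.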
